A study of Homo sapiens with 6 samples.

Results

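The tricarboxylic acid (TCA) cycle genes, with those for pyruvate entry and for glutamate and aspartate conversion, were followed as a list of 38 genes chosen by symbol. All 38 were found among the 46427 genes of the deposited gene table, and all 38 passed the filter on low counts. The libraries came from MDA-MB-231/RR, radioresistant cells derived from MDA-MB-231, a human breast cancer line of the triple-negative kind. The compared groups were 3 libraries labelled control and 3 labelled as given both ortho-topolin riboside (oTR), a plant cytokinin nucleoside, and melatonin, the pineal hormone. All cells, controls included, were of this 1 line and were grown in DMEM with serum, and the labels state neither a dose nor a duration. The study asked whether giving the compounds together alters the transcriptome and metabolome. No library of either compound alone was analysed here, so the values belong to the combination.

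The cycle oxidizes acetyl groups in the mitochondrial matrix and passes the electrons to the respiratory chain. Pyruvate enters the matrix through a carrier and is turned into acetyl-CoA by the pyruvate dehydrogenase complex, which kinases switch off and phosphatases switch on. Glutamine supplies carbon by way of glutamate, which glutamate dehydrogenase and the aminotransferases turn into 2-oxoglutarate. Proliferating cancer cells are known for drawing cycle intermediates off for lipid, nucleotide and amino acid synthesis and for refilling the cycle from glutamine and by pyruvate carboxylation.

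The estimated counts summed to between 50569611 and 72309015 per library, and the 38 genes took 0.375% to 0.401% of them. The labels do not tie libraries to separate cultures. The p-values therefore measure the spread between these libraries, which may be technical. The markers of the line were present: VIM stood at 2115 ± 96.7 TPM in controls (the length-normalized transcript level; SD, n = 3), and the 7 markers summed to between 4024 and 4780.1 TPM per library. Of these 7, EGFR and FN1 rose and KRT18 fell. Of 5 genes low in this line, CDH1, ESR1 and PGR did not reach the test, EPCAM fell from 0.426 ± 0.128 to 0.181 ± 0.0748 TPM, and ERBB2 stood at 29.2 ± 0.793 TPM in controls and was not called. The immune list summed to at most 0.194 TPM in any library and the endothelial list to at most 0.296 TPM. Of 3 fibroblast genes, COL1A2 and DCN were listed at 0 in all 6 libraries, and COL1A1 fell from 8.20 ± 0.972 to 6.99 ± 0.275 TPM (SD, n = 3; edgeR log2 fold change -0.32, adjusted p = 0.0091); its part in the results below was not tested. In such bulk libraries a lower level cannot tell fewer expressing cells from less RNA per cell.

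In co-treated cells 16 of the 38 genes fell and 4 rose (edgeR quasi-likelihood test, adjusted p under 0.05 over all 16557 genes tested). Among all tested genes 33.7% were called, 17.1% lower and 16.6% higher, so the genes of the list fell in a larger share (42.1%) and rose in a smaller one (10.5%). The changes were small. The median log2 fold change of the 38 was -0.10, against 0.002 over all tested genes, and the 20 called genes changed by a median of 1.18-fold. The genes that fell coded for citrate synthase, subunits of isocitrate dehydrogenase, succinyl-CoA ligase, succinate dehydrogenase and pyruvate dehydrogenase, fumarase, mitochondrial malate dehydrogenase, a pyruvate dehydrogenase kinase, glutamate dehydrogenase and the aspartate aminotransferases. The 4 that rose were IDH1 and IDH2, the NADP-dependent isocitrate dehydrogenases, PDP2, a pyruvate dehydrogenase phosphatase, and MPC2, a subunit of the pyruvate carrier. The balance depends on the scaling: with library size alone 12 fell and 7 rose, and on the log2(TPM + 1) scale 6 fell and 9 rose, where the median of all genes lay at 0.108. Lower calls made up 50.8% of the calls over all genes, 35.1% with library size alone and 22.6% on the log2(TPM + 1) scale. No called gene of the list changed direction under any of the 18 alternatives.

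**Figure D1:**
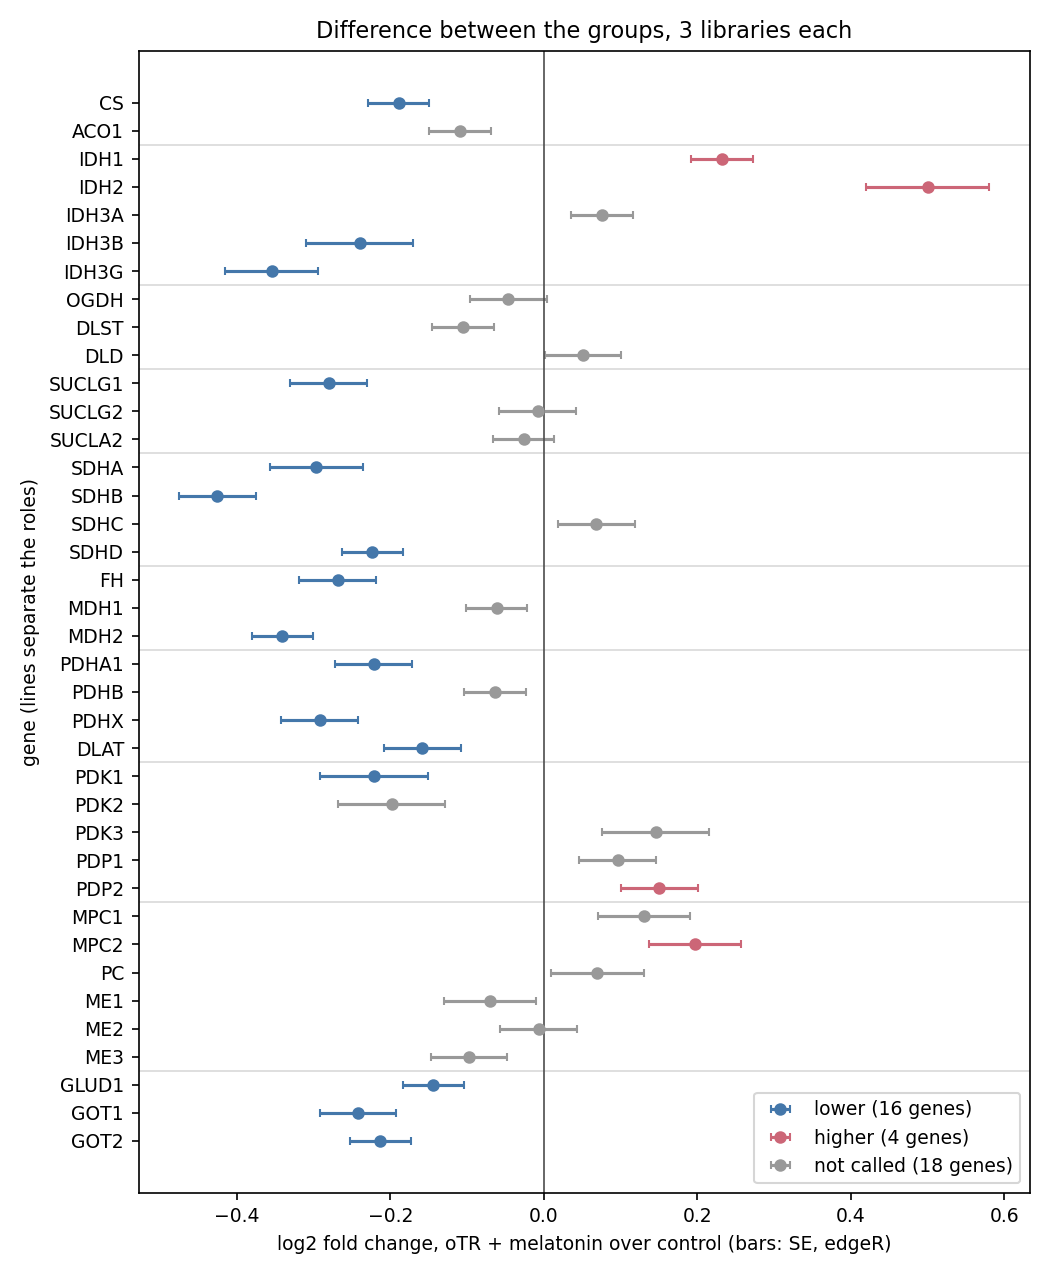
Log2 fold change of each of the 38 genes, co-treated over control (x axis), with its standard error as bars and genes ordered by role (y axis), 3 libraries a group. The 16 genes called lower lie between -0.43 and -0.14, the 4 called higher between 0.15 and 0.50, and 18 genes were not called.

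The isocitrate dehydrogenases moved in opposite directions. These enzymes turn isocitrate into 2-oxoglutarate: IDH1 does so in the cytosol and IDH2 in the mitochondrion with NADP, and the IDH3 complex, of a catalytic alpha subunit and beta and gamma subunits, does so with NAD. IDH2 (gene ID 3418, chromosome 15, 90083045 to 90102468 on GRCh38) stood at 11.4, 9.89 and 10.7 CPM (counts scaled to library size) in control replicates 1, 2 and 3 and at 14.0, 15.2 and 15.96 in the co-treated ones. All 3 co-treated libraries lay above all controls, with a log2 fold change of 0.50 ± 0.08 (SE; adjusted p in edgeR = 0.000857), the largest of the 38. IDH1 (gene ID 3417, chromosome 2, 208236227 to 208255071) stood at 89.3, 88.8 and 85.7 CPM in controls and at 104.5, 100.8 and 104.4 in co-treated cells. Its groups did not overlap either, and it rose by 0.23 ± 0.04 on the log2 scale (SE; adjusted p in edgeR = 0.00199).

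IDH3G, the gamma subunit gene (gene ID 3421, chromosome X, 153785768 to 153794375), stood at 65.0, 55.8 and 61.5 CPM in controls and at 46.3, 48.8 and 47.4 in co-treated cells. It was lower in every co-treated library, by 0.35 ± 0.06 on the log2 scale (SE; adjusted p in edgeR = 0.00117). IDH3B, the beta subunit gene, stood at 120.7, 113.9 and 128.1 CPM in controls and at 92.0, 109.4 and 105.8 in co-treated cells, a log2 fold change of -0.24 ± 0.07 (SE; adjusted p in edgeR = 0.0178). Its lowest control and its highest co-treated library lay close together, and the call was lost without control replicate 3 (log2 fold change -0.20, edgeR adjusted p = 0.0672). With length and GC trends removed it was lost at a smaller change (-0.11, adjusted p in edgeR = 0.0533). IDH3A, the catalytic alpha subunit gene, was not called at 0.08 ± 0.04 (SE; adjusted p in edgeR = 0.210), with 104.6 ± 3.25 CPM in controls and 110.3 ± 2.28 in co-treated cells (SD, n = 3).

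Succinate dehydrogenase, which is also complex II of the respiratory chain, consists of the flavoprotein SDHA, the iron-sulfur protein SDHB and the membrane anchors SDHC and SDHD. SDHB (gene ID 6390, chromosome 1, 17018722 to 17054032) stood at 106.6, 102.6 and 113.5 CPM in controls and at 76.9, 81.7 and 81.6 in co-treated cells. This was the largest fall of the 38 genes, with a log2 fold change of -0.43 ± 0.05 (SE; adjusted p in edgeR = 0.000165), and the co-treated libraries lay well below the lowest control. SDHA stood at 246.9, 229.6 and 261.2 CPM in controls and at 188.9, 205.2 and 206.5 in co-treated cells, a log2 fold change of -0.30 ± 0.06 (SE; adjusted p in edgeR = 0.00248). Reads of SDHA can be shared with its pseudogenes SDHAP1 and SDHAP2, whose counts came to 3.07% and 2.49% of its own. SDHD stood at 98.6, 97.3 and 92.2 CPM in controls and at 83.7, 80.8 and 82.1 in co-treated cells, a log2 fold change of -0.22 ± 0.04 (SE; adjusted p in edgeR = 0.00322). That call was lost with a trend against transcript length removed (-0.14, edgeR adjusted p = 0.0631). SDHC was the subunit gene not called, at 63.8, 69.0 and 65.6 CPM in controls and 70.2, 67.2 and 70.5 in co-treated cells, with overlapping groups (log2 fold change 0.07 ± 0.05, SE; adjusted p in edgeR = 0.303).

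Around succinate dehydrogenase, the steps on the malate side fell with it. MDH2, the mitochondrial malate dehydrogenase gene (gene ID 4191, chromosome 7, 76048106 to 76067508), stood at 196.2, 182.4 and 193.1 CPM in controls and at 147.4, 150.7 and 153.3 in co-treated cells. The groups lay far apart for their spread, at a log2 fold change of -0.34 ± 0.04 (SE; adjusted p in edgeR = 0.000288). FH, which encodes fumarase, stood at 90.1, 83.2 and 87.2 CPM in controls and at 71.0, 73.0 and 72.2 in co-treated cells (log2 fold change -0.27 ± 0.05, SE; adjusted p in edgeR = 0.00129). MDH1, the cytosolic malate dehydrogenase of the malate-aspartate shuttle, went from 251.8 ± 6.32 to 241.3 ± 2.74 CPM (SD, n = 3) and was not called (log2 fold change -0.06 ± 0.04, SE; adjusted p in edgeR = 0.285).

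At the head of the cycle CS, citrate synthase, stood at 236.9, 243.6 and 248.5 CPM in controls and at 212.5, 209.9 and 217.0 in co-treated cells. It fell by 0.19 ± 0.04 on the log2 scale (SE; adjusted p in edgeR = 0.00555), with no overlap. ACO1, the cytosolic aconitase and iron regulatory protein, had lower values in all 3 co-treated libraries and was not called (log2 fold change -0.11 ± 0.04, SE; adjusted p in edgeR = 0.0711). It was called lower with DESeq2 (adjusted p = 0.0481), without co-treated replicate 1 (-0.14, adjusted p in edgeR = 0.0368), with the length trend removed (-0.18, 0.00388) and with length and GC trends removed (-0.17, 0.000684). In succinyl-CoA ligase, the only substrate-level phosphorylation step of the cycle, SUCLG1 encodes the alpha subunit that pairs with a beta subunit from either SUCLG2 (GDP-forming) or SUCLA2 (ADP-forming). SUCLG1 stood at 116.8, 108.9 and 119.2 CPM in controls and at 92.8, 92.0 and 99.2 in co-treated cells, a log2 fold change of -0.28 ± 0.05 (SE; adjusted p in edgeR = 0.00184). Neither beta subunit gene was called: SUCLG2 had a log2 fold change of -0.01 ± 0.05 and SUCLA2 one of -0.03 ± 0.04 (SE; adjusted p in edgeR = 0.910 and 0.684). No gene of the 2-oxoglutarate dehydrogenase complex was called, at log2 fold changes of -0.05 ± 0.05 for OGDH, -0.11 ± 0.04 for DLST and 0.05 ± 0.05 for DLD (SE), the dehydrogenase shared with pyruvate dehydrogenase.

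**Figure D2:**
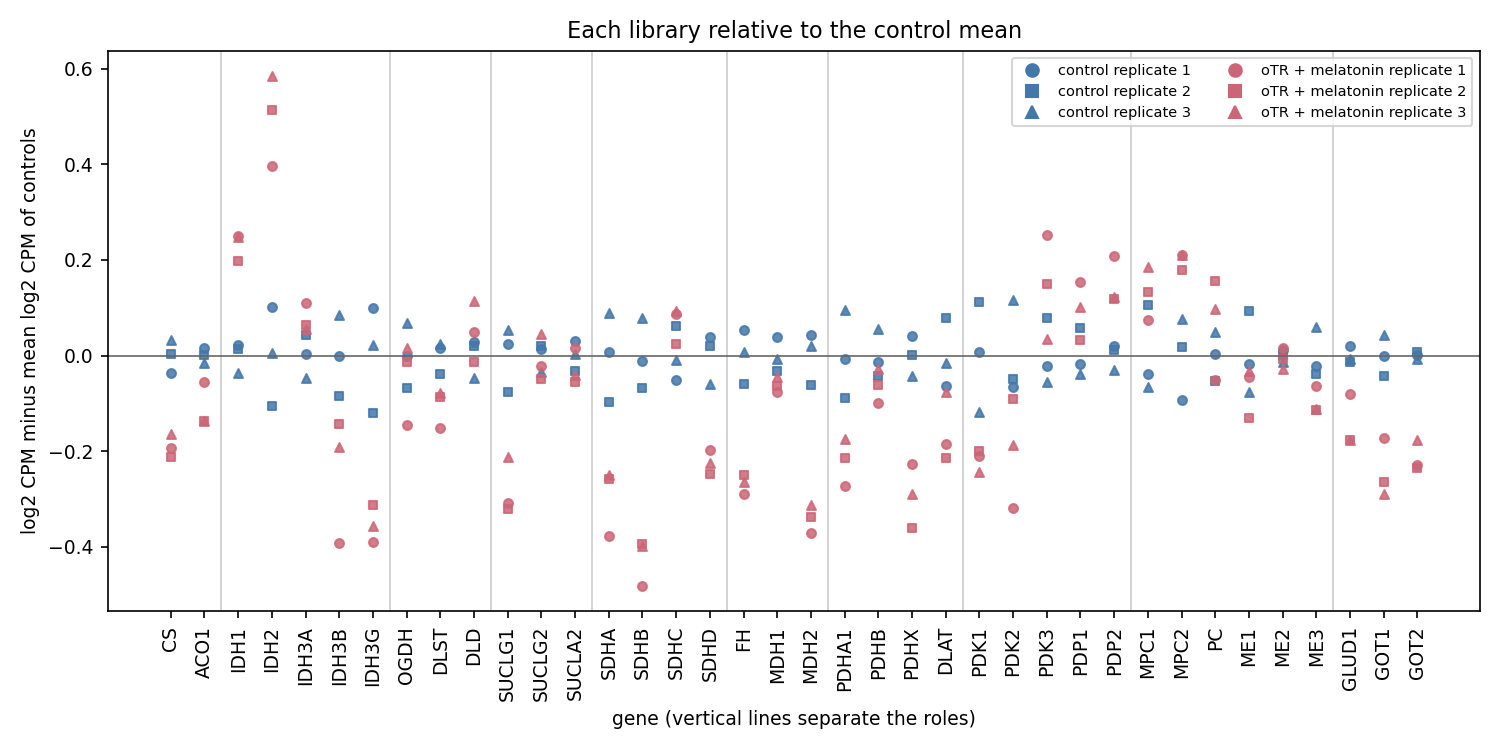
Log2 CPM of each library minus the mean log2 CPM of the controls (y axis) for the 38 genes by role (x axis), with control libraries in blue, co-treated in red and the replicate number as the marker shape. For SDHB, MDH2 and PDHX all red points lie below all blue points, for IDH1 and IDH2 above, and for SUCLG2, SUCLA2 and ME2 they mix.

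The groups did not overlap in CPM for 26 of the 38 genes, against 47.4% of all tested genes. The plot of libraries relative to the control mean shows how narrow these gaps can be, since MDH1 and ME3 were among the 26 without being called.

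Pyruvate dehydrogenase fell in 3 of its 4 own subunit genes. PDHX, the component that tethers DLD to the core, stood at 88.2, 85.7 and 83.2 CPM in controls and at 73.2, 66.7 and 70.1 in co-treated cells, and fell by 0.29 ± 0.05 on the log2 scale (SE; adjusted p in edgeR = 0.00119). PDHA1, the catalytic subunit that carries the regulatory phosphorylation sites, stood at 141.1, 133.3 and 151.4 CPM in controls and at 117.4, 122.2 and 125.5 in co-treated cells (log2 fold change -0.22 ± 0.05, SE; adjusted p in edgeR = 0.00853). DLAT, the acetyltransferase core, went from 116.6 ± 5.89 to 104.4 ± 5.40 CPM (SD, n = 3; log2 fold change -0.16 ± 0.05, SE; adjusted p in edgeR = 0.0407). The DLAT call, the closest to the threshold among those made, was lost without control replicate 2 (-0.12, adjusted p = 0.138) or 3 (-0.17, 0.0703) and without co-treated replicate 1 (-0.14, 0.0903) or 2 (-0.13, 0.148) (all edgeR). PDHB, the beta subunit gene, was not called (log2 fold change -0.06 ± 0.04, SE; adjusted p in edgeR = 0.306).

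Among the listed regulators of that complex, 1 kinase gene fell and 1 phosphatase gene rose, both by small amounts. PDK4, a kinase gene outside the list and low at 1.63 ± 0.145 CPM in controls (SD, n = 3), rose by 1.10 ± 0.13 on the log2 scale (SE; adjusted p in edgeR = 0.000167). PDK1, a kinase known as a hypoxia target, stood at 27.7, 29.8 and 25.4 CPM in controls and at 23.8, 24.0 and 23.2 in co-treated cells (log2 fold change -0.22 ± 0.07, SE; adjusted p in edgeR = 0.0246). Its call was lost without control replicate 1 (-0.22, adjusted p = 0.0609) or 2 (-0.17, 0.0885) and without co-treated replicate 2 (-0.23, 0.0560) or 3 (-0.21, 0.0814) (all edgeR). The PDK1 transcripts with the largest mean TPM shares in controls were annotated as non-coding: XR_427093 (16.7%), XR_427095 (14.4%) and XR_001738771 (12.6%). The coding NM_002610 and NM_001278549 held 9.14% and 7.25%, so the fall of the gene is not a measure of its coding RNA alone. PDK2 lay just outside the threshold at -0.20 ± 0.07 (SE; adjusted p in edgeR = 0.0551), with 31.5, 31.8 and 35.7 CPM in controls and 26.4, 31.0 and 28.95 in co-treated cells. It was called lower without co-treated replicate 2 (-0.25, adjusted p in edgeR = 0.0391), with DESeq2 (-0.20, 0.0311), with a minimum count of 50 (-0.20, 0.0472), and with the length trend (-0.20, 0.0417) or length and GC trends removed (-0.16, 0.0267). PDK3 stood at 19.2, 20.6 and 18.7 CPM in controls and at 23.2, 21.6 and 19.98 in co-treated cells, with overlapping groups, and was not called (edgeR adjusted p = 0.140).

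PDP2 stood at 39.1, 38.9 and 37.8 CPM in controls and at 44.6, 41.8 and 42.0 in co-treated cells, and rose by 0.15 ± 0.05 on the log2 scale (SE; adjusted p in edgeR = 0.0384). That call was lost when any 1 of the 6 libraries was left out, at log2 fold changes of 0.12 to 0.17 (edgeR adjusted p = 0.0663 to 0.108), and with the length trend removed (0.05, edgeR adjusted p = 0.465). PDP1, the other phosphatase, stood at 43.9, 46.2 and 43.2 CPM in controls and 49.4, 45.5 and 47.7 in co-treated cells and was not called (log2 fold change 0.10 ± 0.05, SE; adjusted p in edgeR = 0.180).

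For pyruvate entry, MPC2 (gene ID 25874, chromosome 1, 167916675 to 167937072) stood at 27.5, 29.8 and 31.0 CPM in controls and at 34.0, 33.2 and 34.0 in co-treated cells. It rose by 0.20 ± 0.06 on the log2 scale (SE; adjusted p in edgeR = 0.0224), a call lost without control replicate 1 (0.15, adjusted p = 0.0875) or 2 (0.20, 0.0523) or without co-treated replicate 3 (0.19, 0.0705) (all edgeR). NR_026550, annotated as non-coding, held 93.2 ± 4.94% of the MPC2 TPM in controls and 93.2 ± 3.96% in co-treated cells (SD, n = 3). MPC1, the partner of MPC2 in the carrier, stood at 26.1, 28.8 and 25.6 CPM in controls and at 28.2, 29.4 and 30.5 in co-treated cells, with overlapping groups, and was not called (log2 fold change 0.13 ± 0.06, SE; adjusted p in edgeR = 0.139). PC, pyruvate carboxylase, which refills the cycle at oxaloacetate, was not called at 42.6 ± 1.51 CPM in controls and 44.7 ± 3.29 in co-treated cells (SD, n = 3; log2 fold change 0.07 ± 0.06, SE). By the main edgeR test none of the malic enzymes, which turn malate into pyruvate, was called: ME1 had a log2 fold change of -0.07 ± 0.06, ME2 of -0.01 ± 0.05 and ME3 of -0.10 ± 0.05 (SE). With length and GC trends removed, ME1 and ME2 were called lower (-0.13 and -0.16, adjusted p in edgeR = 0.0432 and 0.0143). In the main test ME2 had the highest adjusted p of the 38 (edgeR, 0.926), at 38.4, 38.2 and 37.7 CPM in controls and 38.5, 37.9 and 37.4 in co-treated cells.

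All 3 genes of glutamate and aspartate conversion fell. GOT2, the mitochondrial aspartate aminotransferase, stood at 296.2, 297.6 and 294.4 CPM in controls and at 252.6, 251.7 and 262.0 in co-treated cells (log2 fold change -0.21 ± 0.04, SE; adjusted p in edgeR = 0.00255). GOT1, its cytosolic counterpart, stood at 93.4, 90.7 and 96.3 CPM in controls and at 82.9, 77.7 and 76.4 in co-treated cells (log2 fold change -0.24 ± 0.05, SE; adjusted p in edgeR = 0.00308). For both aminotransferases the groups were clearly apart. GLUD1, glutamate dehydrogenase, stood at 255.6, 249.6 and 250.6 CPM in controls and at 238.4, 222.9 and 222.7 in co-treated cells (log2 fold change -0.14 ± 0.04, SE; adjusted p in edgeR = 0.0279). The GLUD1 call was lost without control replicate 1 (-0.14, adjusted p = 0.0988) or 3 (-0.15, 0.0602) and without co-treated replicate 2 (-0.13, 0.0905) or 3 (-0.13, 0.114) (all edgeR).

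By compartment, 15 of 33 mitochondrial enzymes and carrier genes fell (45.5%) and 3 rose (9.09%), with a median log2 fold change of -0.11. Of the 5 cytosolic enzymes (ACO1, IDH1, MDH1, GOT1 and ME1), 1 fell and 1 rose (20% each), with a median of -0.07. Among all tested genes 17.1% were called lower and 16.6% higher, so the cytosolic shares lay near those of all genes. The difference between the compartments was not tested.

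Levels between genes were compared per length, in TPM. In controls MDH1 stood highest at 411.3 ± 14.5 TPM, followed by GOT2 at 259.2 ± 6.54, PDHB at 227.3 ± 3.83 and SDHB at 224.3 ± 7.43 (SD, n = 3). The PDHB and SDHB levels differed by less than their spread in controls. The lowest were PDK3 at 3.98 ± 0.263, IDH2 at 8.505 ± 0.666, ME2 at 10.1 ± 0.844, PDP2 at 11.6 ± 0.443 and PDK1 at 11.8 ± 0.944 TPM, the last pair being indistinguishable within their spread. IDH2, with the largest rise, was thus the second least abundant gene of the list, and at 13.1 ± 0.645 TPM in co-treated cells it still lay well below IDH1 (103.2 ± 2.98) and each IDH3 subunit gene. IDH1 moved from rank 19 to rank 13 of the 38 and IDH3G from rank 16 to rank 20.

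**Figure D3:**
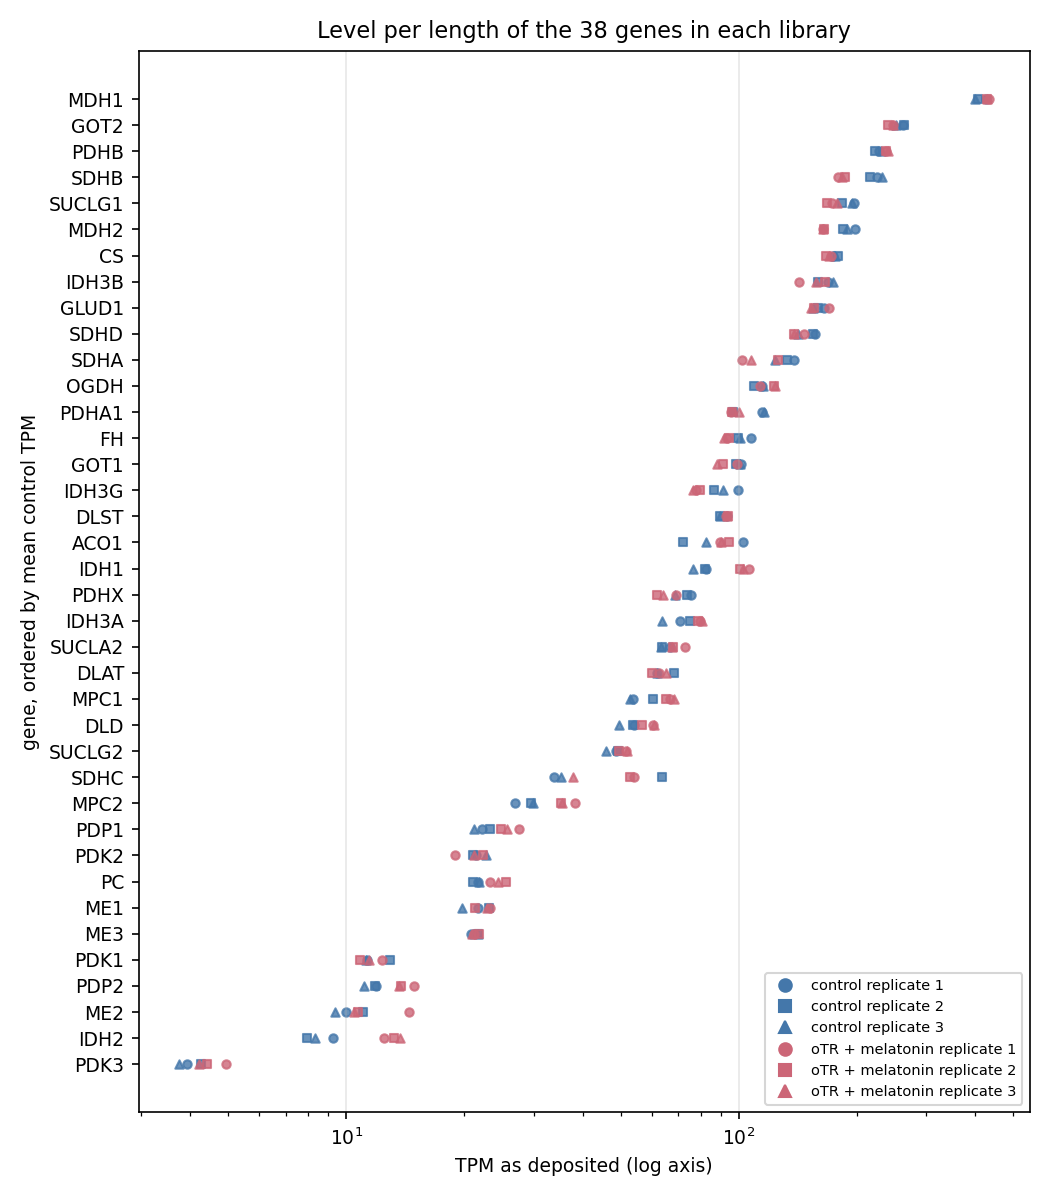
Deposited TPM of the 38 genes in each library (x axis, log scale), ordered by mean control level (y axis), with controls in blue and co-treated libraries in red and the replicate number as the marker shape. MDH1 lies highest near 411 TPM in controls and PDK3 lowest near 3.98, and the SDHC points spread from 33.8 to 63.7 TPM within the controls.

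Ratios within a library are free of the scaling between libraries, and they are given as descriptions without a test. TPM ratios still depend on how the reads of each library were divided among transcripts of different length. The TPM of IDH2 over that of IDH3A was 0.131, 0.106 and 0.130 in controls and 0.156, 0.168 and 0.170 in co-treated cells. The TPM of IDH3A over that of IDH3G was 0.711, 0.870 and 0.701 in controls and 1.03, 0.993 and 1.05 in co-treated cells, so the subunit genes of 1 complex shifted against each other with no overlap. MDH2 over MDH1 fell from 0.463 ± 0.00873 to 0.381 ± 0.00314 (SD, n = 3), also with no overlap and with the tightest spread of the ratios computed.

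The summed TPM of PDK1, PDK2 and PDK3 over that of PDP1 and PDP2 was 1.07, 1.09 and 1.17 in controls and 0.855, 0.974 and 0.938 in co-treated cells. PDK4, which rose, was not part of that sum, and the PDK1 level in it includes transcripts annotated as non-coding. The carrier genes MPC1 and MPC2 together, over PDHA1, stood at 0.702, 0.930 and 0.714 in controls and at 1.10, 1.04 and 1.04 in co-treated cells. For these pairs all co-treated values lay on 1 side of all control values. In counts without division by length the groups did not overlap either. The log2 change was then -0.23 for the kinases over the phosphatases and 0.39 for the carrier genes over PDHA1, against -0.27 and 0.45 in TPM. Other ratios overlapped between the groups: SUCLG2 over SUCLA2 was 0.743 ± 0.0246 and 0.737 ± 0.0306, GOT2 over GOT1 was 2.59 ± 0.0915 and 2.65 ± 0.157, and MPC1 over MPC2 was 1.94 ± 0.151 and 1.84 ± 0.0914, in controls and co-treated cells (SD, n = 3).

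**Figure D4:**
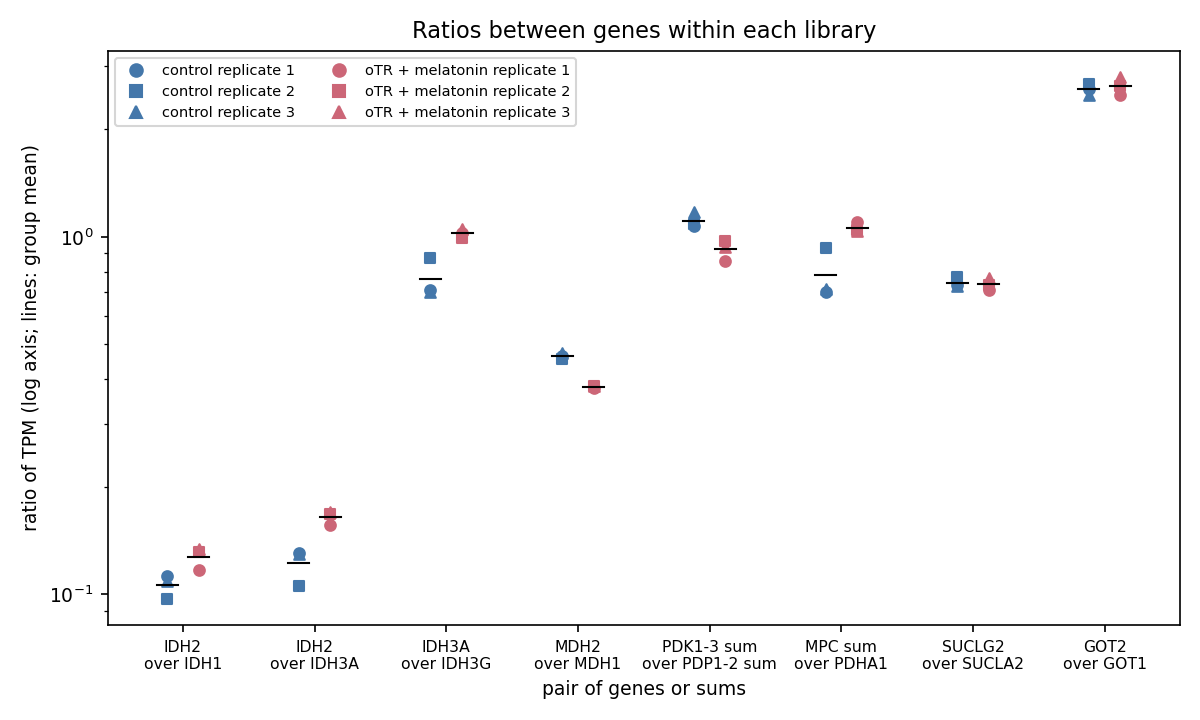
Ratio of TPM between genes or sums of genes within each library (y axis, log scale) for 8 pairs (x axis), with controls in blue, co-treated libraries in red and the group mean as a line. IDH2 over IDH3A lies at 0.106 to 0.131 in controls and 0.156 to 0.170 in co-treated cells, while SUCLG2 over SUCLA2 and GOT2 over GOT1 overlap.

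Shifts between the transcripts of a gene were tested separately. Of 33 genes of the list with at least 2 tested transcripts, 0 were called by the F test of limma's diffSplice after voom. Among all 9961 genes tested 2.49% were called, so 0 of 33 lay near that share. Of the 33 genes, 7 had an unadjusted p under 0.05 by the F test. The share of all genes under that level was not computed, so the 7 cannot be read as an excess. SUCLG2 came closest (adjusted p = 0.0634 by the F test and 0.0251 by the Simes method of the same tool). Its transcript NM_003848, of the deposited annotation, made up 27.2%, 29.2% and 41.6% of the gene's TPM in controls and 19.4%, 23.2% and 20.6% in co-treated cells. XM_017007420, a predicted SUCLG2 transcript, made up 23.2%, 21.7% and 23.5% in controls and 28.1%, 30.5% and 30.5% in co-treated cells, so the shares of both transcripts did not overlap. XR_001740348, annotated as non-coding, had the largest mean share of SUCLG2. It made up 48.2%, 47.9% and 33.7% in controls and 51.4%, 43.9% and 47.3% in co-treated cells, with overlapping groups. Without control replicate 3 SUCLG2 and SDHA were called by the F test (adjusted p = 0.0318 and 0.00258), and without control replicate 2 MDH2 was (adjusted p = 0.0334). By diffSplice's t test per transcript, relative to the gene, NM_003848 of SUCLG2 was called lower and XR_002956167 of SDHA higher (adjusted p = 0.0244 and 0.0446). The SDHA transcript, annotated as non-coding, made up 3.45%, 2.08% and 47.4% of the gene's TPM in controls. It made up 39.4%, 25.2% and 43.6% in co-treated cells, so the groups overlapped.

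In IDH3G, variant NM_004135 held 73.2%, 80.6% and 74.2% of the TPM in controls and 68.5%, 63.6% and 69.4% in co-treated cells. The groups did not overlap, and the shift did not pass (diffSplice adjusted p = 0.139). IDH2 and IDH1 each came almost wholly from 1 transcript, NM_002168 with 97.1 ± 3.12% and NM_005896 with 96.2 ± 1.23% in controls (SD, n = 3), so their rises were rises of that transcript.

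Promoter sequences of the listed genes, called or not, were searched for 5 motifs, in the 250 bases before the RefSeq start (GRCh38.p14), on both strands. A promoter was found for 35 of the 38 genes. OGDH, SDHC and PDP1 had none in the table. The ETS motif CCGGAAGT lay in 4 of the 35 (11.4%), against 3.42% of 35116 promoters of the same length. The listed promoters were also richer in G and C, with a median of 67.6% against 58% over all promoters, and the part of this in the motif shares was not tested. Of those 4, IDH3B, SDHD and MDH2 fell and DLST was not called. The ETS motif thus lay in 3 of 16 searched promoters of genes that fell, 0 of 4 that rose and 1 of 15 not called. These shares were not tested against each other. The E-box CACGTG lay in 3 of the 35 (8.57%, against 6.34% of all), namely PDP2, which rose, and PDHB and ME3, which were not called. The NRF1 motif, the first run of capitals in the SDHD stretch, lay in SDHD alone (against 1.03% of all promoters), and the ERR motif TCAAGGTCA and the YY1 motif AAGATGGCG in none of the 35 (against 0.319% and 0.652%). Each match is a run of letters and not a measured binding site. The stretches below are shown because they hold the matches in genes that fell, the match in a gene that rose, and matches in genes not called. They are written 5′ to 3′ on the gene's strand, with the motifs in capitals and no overlap between motifs. SDHD lies at chr11:112086738-112086827 (plus strand, the NRF1 motif and then an ETS motif), MDH2 at chr7:76047968-76048069 (plus strand, a pair of ETS motifs), and IDH3B at chr20:2664224-2664281 (minus strand, ETS). DLST lies at chr14:74881868-74881915 (plus strand, ETS), PDP2 at chr16:66880293-66880348 (plus strand, E-box) and PDHB at chr3:58434038-58434082 (minus strand, E-box).
SDHD: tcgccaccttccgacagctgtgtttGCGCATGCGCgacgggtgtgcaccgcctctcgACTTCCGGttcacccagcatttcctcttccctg
MDH2: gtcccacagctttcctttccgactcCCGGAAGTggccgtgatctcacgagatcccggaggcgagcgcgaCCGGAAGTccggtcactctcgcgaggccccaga
IDH3B: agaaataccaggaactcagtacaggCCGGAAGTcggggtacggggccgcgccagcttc
DLST: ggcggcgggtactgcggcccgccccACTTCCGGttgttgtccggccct
PDP2: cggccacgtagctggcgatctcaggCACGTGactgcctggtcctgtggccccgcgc
PDHB: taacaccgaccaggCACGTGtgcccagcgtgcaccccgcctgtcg

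Of 53 further genes of the same pathways, 49 were tested, and 14 fell and 8 rose, with a median log2 fold change of -0.05. These were 28.6% and 16.3% of those tested, against 17.1% lower and 16.6% higher among all tested genes. With library size alone 10 fell and 9 rose, where 12.5% of all genes were called lower and 23.0% higher. On the log2(TPM + 1) scale 4 fell and 13 rose, where 8.72% of all genes were called lower and 29.8% higher. SLC38A2, a sodium-coupled neutral amino acid transporter, rose from 639.7 ± 30.04 to 919.9 ± 64.3 CPM and ASNS, asparagine synthetase, which consumes glutamine and aspartate, from 92.0 ± 2.80 to 131.1 ± 7.12 CPM (SD, n = 3). Of the proline synthesis genes downstream of glutamate, ALDH18A1 fell by 0.38 ± 0.04 and PYCR1 by 0.34 ± 0.08 on the log2 scale (SE; adjusted p in edgeR = 0.000112 and 0.00914).

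Beside the listed kinases, PDK4 rose from 1.80, 1.57 and 1.53 CPM in controls to 3.29, 3.39 and 3.81 in co-treated cells, a log2 fold change of 1.10 ± 0.13 (SE; adjusted p in edgeR = 0.000167). Of the succinate dehydrogenase assembly genes SDHAF1, SDHAF2, SDHAF3 and SDHAF4, 0 were called by edgeR, against 33.7% of all tested genes. Among the assembly genes 0 had an unadjusted p under 0.05, and DESeq2 and limma-voom also called 0. Their log2 fold changes were 0.18 ± 0.11, -0.05 ± 0.07, -0.21 ± 0.10 and 0.01 ± 0.12 (SE). SDHAF1, SDHAF3 and SDHAF4 were low, at 6.92, 4.96 and 3.86 CPM in controls. At such SEs a fall as large as that of SDHD could go uncalled. GCSH, a lipoate-carrying protein of the glycine cleavage system, fell by 0.36 ± 0.05 on the log2 scale (SE; adjusted p in edgeR = 0.000287), and ADSL, which releases fumarate in purine synthesis, by 0.39 ± 0.05 (SE; adjusted p in edgeR = 0.000228).

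**Figure D5:**
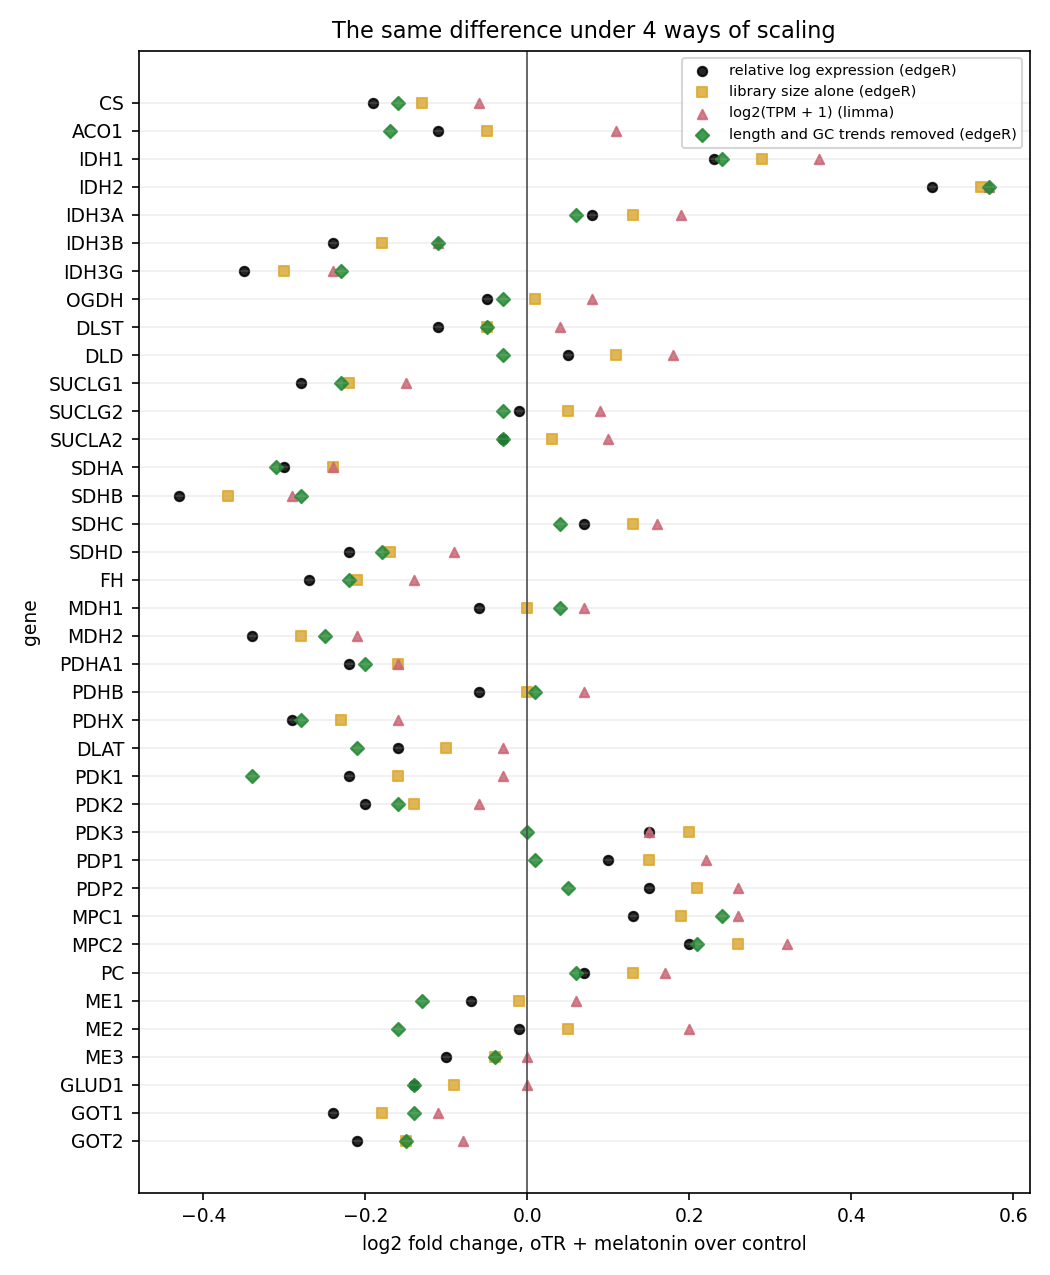
Log2 fold change of the 38 genes (x axis; genes on the y axis, by role) under 4 ways of scaling, with a symbol for each. Values on the TPM scale lie to the right of the others for most genes, and IDH2, IDH1, SDHB, MDH2 and IDH3G keep their side of 0 under all 4.

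The plot of the same difference under 4 scalings shows which statements rest on the choice. IDH1, IDH2, IDH3G, SDHB and MDH2 kept their call and direction under all 18 alternatives. With library size alone IDH3B, DLAT, PDK1 and GLUD1 were no longer called lower. On the log2(TPM + 1) scale those 4 and CS, SDHD, PDHA1, PDHX, GOT1 and GOT2 were no longer called, nor was PYCR1 of the further genes. IDH3A, PDP1 and MPC1 were called higher with library size alone and on the log2(TPM + 1) scale, and DLD and PC on the latter. With the length trend removed, MPC1 was called higher (0.25, adjusted p in edgeR = 0.00934) and ACO1 and PDK2 lower. Relative to the median of all genes on the log2(TPM + 1) scale, 25 of the 38 genes lay lower and 13 higher, with a median difference of -0.06.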

How the data were processed

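RNA-seq gene and transcript tables of 6 libraries were used. Reads were handled with Trimmomatic 0.38, HISAT2 2.1.0, SAMtools 1.9 and StringTie 2.1.3b on GRCh38, per the submitters' processing notes, and no source used here states whether counting was by strand. The deposited estimated counts per gene equal the sums over the gene's transcripts, and the deposited FPKM and TPM values are the authors' own length-normalized levels. Columns were matched to samples by their names.

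Genes were tested on the deposited counts with edgeR 4.0.16 (quasi-likelihood test, trended dispersion, relative log expression factors, filterByExpr with a minimum count of 10) and Benjamini-Hochberg adjustment over all tested genes, called at 0.05. Library totals of 50569611 to 72309015 counts set the counting precision. CPM uses the same factors. Transcript usage was tested with voom and diffSplice of limma 3.58.1. Alternatives were other scaling factors and count filters, DESeq2 1.42.0, limma-voom, limma on log2(TPM + 1) or log2(TPM + 0.1), a replicate block, each library left out, and trends against transcript length and GC content removed (GC known for 14532 of the tested genes, 87.8%). The scripts were tested on simulated data in R 4.3.3. Every listed gene is described by role. Of the 53 further genes, those called with a log2 fold change of at least 0.3 in size are named, except some that are not reported here, and the assembly genes were named after their values were seen. The listed genes, further genes, markers and motifs were chosen with earlier results of these data known. Promoters came from RefSeq (GRCh38.p14).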

Additional observations from a re-analysis of the deposited data

How the results depend on the processing

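The 16 falls and 4 rises among the listed genes depended most on the scale. On the log2(TPM + 1), log2(TPM + 0.1) and unfiltered log2(TPM + 1) scales 6, 6 and 3 genes fell, and 9, 9 and 6 rose. With library size alone 7 rose. Among the 53 further genes (14 lower, 8 higher), 4, 5 and 3 fell on the same 3 scales, and 13 rose on each of the filtered ones. On these 3 scales 8.72%, 8.60% and 3.73% of all genes were called lower and 29.8%, 29.8% and 12.4% higher. When each library was left out in turn, 13 to 16 listed genes fell and 2 to 3 rose, and 8 to 13 further genes fell and 6 to 8 rose. The 8 further genes that fell were found without control replicate 3. Over all genes 12.9% to 14.8% were then called lower and 12.4% to 14.1% higher, against 17.1% and 16.6% with every library. The listed genes called for transcript usage numbered 0 by the F test, 1 by the Simes method and 0 to 2 with a library left out. The cause of these shifts was not tested. Of the 20 called genes, 13 kept call and direction outside the TPM scales, and none of the ratios moved beyond its spread between libraries.

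Genes that changed sign were not called by the main test. On the log2(TPM + 1), log2(TPM + 0.1) and unfiltered scales the log2 fold change was 0.1092, 0.1105 and 0.1092 for ACO1, 0.0824, 0.0830 and 0.0824 for OGDH, 0.0391, 0.0395 and 0.0391 for DLST, and 0.0907, 0.0924 and 0.0907 for SUCLG2. It was 0.1033, 0.1047 and 0.1033 for SUCLA2, 0.0697, 0.0699 and 0.0697 for MDH1, 0.0681, 0.0684 and 0.0681 for PDHB, 0.0643, 0.0670 and 0.0643 for ME1, and 0.1998, 0.2153 and 0.1998 for ME2. With library size alone it was 0.0123 for OGDH, 0.0502 for SUCLG2, 0.0322 for SUCLA2 and 0.0518 for ME2. With the length trend removed it was 0.0098 for SUCLG2, 0.0153 for SUCLA2, 0.0320 for MDH1 and 0.0143 for PDHB. With length and GC trends removed it was -0.0263 for DLD, 0.0408 for MDH1, 0.0133 for PDHB and -0.0047 for PDK3. With each library left out in turn it ran from -0.0821 to 0.0005 for OGDH (above 0 without co-treated replicate 1), from -0.0349 to 0.0122 for SUCLG2 (co-treated replicate 2) and from -0.0182 to 0.0054 for ME2 (co-treated replicate 3).

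Same-numbered libraries did not deviate together (correlations of 0.0691, 0.000448 and -0.0357 for replicates 1, 2 and 3), and 2 of 6 libraries correlated best with their own number, so the numbers were not taken as pairs. With a replicate block 18 listed genes fell and 4 rose, 14 further genes fell and 9 rose, and 0 listed genes were called for transcript usage. The block added ACO1 (-0.11, adjusted p in edgeR = 0.0478) and PDK2 (-0.20, 0.0204) to the genes that fell. Over all genes the block called 3190 lower and 3177 higher, against 2835 and 2743 without it.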

Other observations

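The TPM of SDHC split the libraries across the groups. It stood at 33.8, 63.7 and 35.1 TPM in controls and at 54.1, 52.7 and 37.8 in co-treated cells, while its CPM lay between 63.8 and 70.5 in all 6 libraries. The share of the gene's TPM assigned to NR_103459, a non-coding SDHC transcript of 13469 bases, was 14.1%, 0.123% and 13.4% in controls and 0.0636%, 0.114% and 14.0% in co-treated cells. The 3 libraries with a share of 13.4% or more were the 3 with the lowest SDHC TPM. The TPM ratios of the other succinate dehydrogenase genes to SDHC therefore overlapped between the groups, and the same ratios of counts did not.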
